A study of Mus musculus with 26 samples.

Results

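A set of 9 genes that move, tether or release melanosomes and other lysosome-related organelles was followed through the pigmented mouse eye: *Mlph*, *Myo5a*, *Myo7a*, *Myrip*, *Rab17*, *Rab27a*, *Rab38*, *Sytl2* and *Syt4*. They were chosen by name and by their measured single-cell levels in RPE and melanocytes and their mean FPKM in tissue, all known from these data, so those values are descriptions and carry no test. All 9 were found among the 16426 genes of the single-cell count tables and the 17623 genes of the tissue table. Single cells of RPE/choroid tissue were profiled in 2 libraries. One was from B6129PF1/J and the other from C57BL/6J, and each pooled the eyes of 1 male and 1 female mouse aged 90 d. The tissue libraries were from 3 *Ihh+/+* and 3 *Ihh iΔEC/iΔEC* mice on C57BL/6J, aged 6 months and given tamoxifen 12 weeks earlier. Both of those genotypes carried the *Cdh5-PAC-CreERT2* transgene, whose Cre is driven by an endothelial promoter, and the deleted mice in addition had floxed *Ihh*. A last pair of groups, of 3 libraries each, held GLI1+ choroidal cells sorted as GFP+ cells from the pooled tissue of *Gli1GFP/+* mice (labelled SWR/J; the line came from that strain and had been crossed with BALB/c), so that the libraries share their animals, then cultured and given DMSO or 100 nM SAG, a small-molecule agonist of the Hedgehog pathway, for 24 h.

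Melanosomes are the organelles in which melanin is made and stored. RAB27A, a small GTPase on the melanosome membrane, recruits a linker protein that in turn binds an actin motor: melanophilin (*Mlph*) and myosin Va (*Myo5a*) in skin melanocytes, and MYRIP with myosin VIIa (*Myo7a*) in the RPE. RAB38 brings melanin-making enzymes to the maturing melanosome, RAB17 acts in melanosome release and recycling endosomes, SYTL2 is another RAB27A effector that tethers organelles to the plasma membrane, and SYT4 is a synaptotagmin of dense-core and secretory vesicles.

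In GRCm38, *Mlph* (chr1:90915085-90951142, plus strand) and *Rab17* (chr1:90958133-90969661, minus strand) are neighbours that face each other with 6990 bases between their ends. *Rab38* (chr7:88430273-88491572), *Sytl2* (chr7:90302252-90410719) and *Myo7a* (chr7:98051060-98119524) share chromosome 7. *Rab27a* (chr9:73044854-73097629), *Myo5a* (chr9:75071015-75223688) and *Myrip* (chr9:120301513-120474841) share chromosome 9. *Syt4* shares 566 exonic bases (14.5% of its exons) with the antisense gene *Gm26658*, and *Rab27a* shares 149 with a processed pseudogene on its own strand. How the counting of the bulk reads treated strand is not given in the sources used here. Bulk reads of the *Syt4* overlap therefore cannot be told apart. Strand cannot separate reads of the *Rab27a* overlap.

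RefSeq promoter windows on GRCm38.p6 were used for 6 of the 9 genes, in 8 windows. The other 3 genes had no window or were left out here, so nothing is said of their promoters. The 250 bases before each start were searched on both strands for CACGTG, which reads the same on either strand, and for CATGTG, which appears as CACATG where the match is on the opposite strand. Both are E-box letters that the pigment cell factor MITF is known to bind and that do not overlap each other. Of all 32851 windows of that length, 6.02% held CACGTG and 12.3% held CATGTG. Matches were found in 3 member windows, printed here from 5′ to 3′ on the gene's strand, with the matched letters in capitals: *Mlph*, because it was among the members with the highest ratio of melanocytes to RPE, with CACGTG at -48 from the start (chr1:90914850-90915099, outside the gene apart from 15 bases of an exon); the inner start of *Rab27a*, because *Rab27a* was alike in both cell types, with CACGTG at -246 (chr9:73063898-73064147, within the gene and in no exon); and the inner start of *Myo7a*, for comparison with its outer start, with CACATG at -139 and at -110 (chr7:98109249-98109498, minus strand, within the gene and in no exon).
Mlph: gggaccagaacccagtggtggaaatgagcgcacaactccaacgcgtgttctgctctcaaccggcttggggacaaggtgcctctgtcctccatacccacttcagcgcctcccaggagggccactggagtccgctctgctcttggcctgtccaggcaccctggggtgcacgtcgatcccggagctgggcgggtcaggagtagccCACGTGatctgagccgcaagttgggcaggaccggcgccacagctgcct
Rab27a: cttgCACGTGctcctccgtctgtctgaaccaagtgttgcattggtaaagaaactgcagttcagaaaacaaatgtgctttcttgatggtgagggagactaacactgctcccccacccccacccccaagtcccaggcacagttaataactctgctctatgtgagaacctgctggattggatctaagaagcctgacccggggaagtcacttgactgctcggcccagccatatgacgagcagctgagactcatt
Myo7a: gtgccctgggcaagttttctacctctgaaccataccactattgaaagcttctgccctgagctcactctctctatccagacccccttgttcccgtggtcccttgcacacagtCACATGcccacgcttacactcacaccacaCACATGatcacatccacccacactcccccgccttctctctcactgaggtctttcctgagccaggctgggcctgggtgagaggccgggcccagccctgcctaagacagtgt
No match was found in the windows of *Myo5a*, *Myrip* and *Rab17* or at the outer starts of *Rab27a* and *Myo7a*. These are matches of letters only. The bases after the start in both *Rab27a* windows were not found in a GENCODE M21 transcript of the gene, while those of the other windows were.

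The counts hold 3637 cells and 17168578 UMIs in B6129PF1/J, and 3928 cells and 15230413 UMIs in C57BL/6J. Of the cell barcodes, 22 occur in both. These totals, and the cells of RPE and of melanocytes, are lower than those the paper gives, so the clusters used here are not exactly the published ones. Levels are given as the summed UMIs of a gene per 10,000 UMIs of all genes in a cluster, with exact 95% Poisson limits in parentheses, and shares of cells have Clopper-Pearson limits. These limits hold counting error and nothing else. With 1 library per strain there is no replicate check and no test. RPE (cluster 1) had 407 and 374 cells, with medians of 5263 and 3406.5 UMIs. Melanocytes (cluster 10) had only 16 and 26 cells, with medians of 5327.5 and 3454 UMIs, and this number sets the precision of every melanocyte value. The markers were where the names place them. The 6 RPE markers (*Rpe65*, *Rlbp1*, *Rgr*, *Lrat*, *Rdh5* and *Ttr*) summed to 1457 and 1366 per 10,000 in cluster 1 against 4.84 and 10.9 in cluster 10, and 6 melanocyte markers (*Mlana*, *Pmel*, *Dct*, *Tyrp1*, *Tyr* and *Kit*) summed to 578 and 570 in cluster 10 against 20.5 and 18.7 in cluster 1, where all 6, several of them pigment genes of both cell types, were detected. No marker of either list was at 0 in these 2 clusters.

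*Rab27a*, the GTPase common to both transport complexes, was at a like level in both pigmented cell types. In RPE it was at 1.49 per 10,000 (447 UMIs, 1.36 to 1.64) in B6129PF1/J and 1.32 (230 UMIs, 1.15 to 1.5) in C57BL/6J. In melanocytes it was at 1.58 (14 UMIs, 0.862 to 2.65) and 1.83 (19 UMIs, 1.1 to 2.86). The intervals overlapped in both libraries, and the ratio of melanocytes to RPE was 1.06 (0.574 to 1.79) and 1.39 (0.823 to 2.22), so a difference of up to about that size in either direction is not detectable with so few melanocytes. At least 1 UMI was found in 54.5% and 41.7% of RPE cells and in 43.8% and 53.8% of melanocytes, against 0.541% and 0.744% of the ECs in cluster 2 (medians of 4232.5 and 3460 UMIs). With each cell thinned to 1700 UMIs, which left out no cell, these shares were 23.1% and 20.9% in RPE, 18.8% and 23.1% in melanocytes, and 0% and 0.744% in the ECs. RPE held 83.7% and 69.9% of all *Rab27a* UMIs of the libraries.

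The melanocyte partners were a different matter. *Mlph*, the linker, was at 5.29 (47 UMIs, 3.89 to 7.04) and 5.59 (58 UMIs, 4.24 to 7.23) per 10,000 in melanocytes and at 0.02 (6 UMIs) and 0.00572 (1 UMI) in RPE. The ratio of melanocytes to RPE was 265 (113 to 757) in B6129PF1/J and 977 (169 to 39246) in C57BL/6J, where the upper bound rests on the single RPE UMI. At 1.23% and 0.267% of cells, *Mlph* detection in RPE lay within the interval of its detection in the ECs of cluster 2 (1.08%, 0.295 to 2.74, and 1.24%, 0.404 to 2.87) in B6129PF1/J and below it in C57BL/6J, and is read as background. In melanocytes it was detected in 87.5% and 88.5% of cells, and in 68.8% and 65.4% after thinning.
*Myo5a*, the motor, was at 3.27 (29 UMIs, 2.19 to 4.69) and 1.93 (20 UMIs, 1.18 to 2.98) in melanocytes and at 0.0967 (29 UMIs) and 0.0973 (17 UMIs) in RPE. That is 33.8-fold (19.5 to 58.6) and 19.8-fold (9.86 to 40.3) higher in melanocytes, with intervals far apart in both libraries. Outside the pigmented clusters its next level was in hematopoietic cells (cluster 11), at 0.365 (20 UMIs) and 0.280 (17 UMIs). In each library 1 cell of that cluster held 5 of these UMIs.

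Of the RPE partners, *Myrip* was the one member found in RPE and not in melanocytes. It was at 0.674 per 10,000 (202 UMIs, 0.584 to 0.773) and 0.778 (136 UMIs, 0.653 to 0.920) in RPE. No UMI was found in 16 and 26 melanocytes, where 3 UMIs would correspond to 0.338 and 0.289 per 10,000. Against those 3 UMIs RPE was at least 1.99-fold and at least 2.69-fold higher, and with the counting error of RPE included the exact 95% lower limits of the ratio were 1.61 and 2.16. By the same zero counts, up to 20.6% and 13.2% of melanocytes could have held a UMI. With each cell thinned to 1700 UMIs, RPE lay under the level of 3 melanocyte UMIs in B6129PF1/J, and no bound could be given there.
*Myo7a* was not set apart in the same way. It was at 0.157 (47 UMIs, 0.115 to 0.208) and 0.114 (20 UMIs, 0.0699 to 0.177) in RPE. In melanocytes it was at 0.901 (8 UMIs in 7 of 16 cells, 0.389 to 1.78) in B6129PF1/J and at 0.0964 (1 UMI) in C57BL/6J. Melanocytes were thus 5.75-fold (2.35 to 12.3) higher in the first library and at 0.842 times (0.0203 to 5.27) the RPE level in the second, and the libraries did not give the same order.

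Detection within single cells follows from these levels and is given as a description. *Rab27a* and *Myrip* were both detected in 90 of 407 RPE cells (22.1%) in B6129PF1/J, in 54 of 374 (14.4%) in C57BL/6J, and in no melanocyte, none of which had a UMI of *Myrip*. *Rab27a*, *Mlph* and *Myo5a* were all detected in 4 of 16 and 7 of 26 melanocytes, and in no RPE cell. *Rab27a*, *Myrip* and *Myo7a* were all detected in 19 (4.67%) and 5 (1.34%) RPE cells. The median melanocyte had UMIs of 5 of the 9 members in both libraries and the median RPE cell of 1, and 112 (27.5%) and 149 (39.8%) RPE cells had none.

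Of the genes of cargo delivery and secretion, *Rab38*, *Sytl2* and *Syt4* were higher in melanocytes, and *Rab17* could not be placed. *Rab38* was at 4.96 (44 UMIs, 3.6 to 6.65) and 9.93 (103 UMIs, 8.10 to 12.0) in melanocytes and at 0.13 (39 UMIs) and 0.103 (18 UMIs) in RPE, a ratio of 38.1 (24.2 to 60.2) and 96.4 (58.1 to 169). No UMI of *Rab38* was found in any of the 3 EC clusters of either library, so its low RPE level, in 7.86% and 4.28% of cells, is above what those clusters show. *Sytl2* was at 1.58 (14 UMIs, 0.862 to 2.65) and 1.93 (20 UMIs, 1.18 to 2.98) in melanocytes and at 0.163 (49 UMIs) and 0.223 (39 UMIs) in RPE. Melanocytes were 9.65-fold (4.92 to 17.8) and 8.64-fold (4.77 to 15.2) higher, yet RPE, with its many more cells, held 47.6% and 46.4% of all *Sytl2* UMIs.
*Syt4* was the member with the largest share of its UMIs in melanocytes. It was at 12.4 (110 UMIs, 10.2 to 14.9) and 16.2 (168 UMIs, 13.8 to 18.8) per 10,000 in melanocytes, where 15 of 16 and 25 of 26 cells had at least 1 UMI. RPE had 4 UMIs in 2 cells (0.0133) in B6129PF1/J and none in 374 cells of C57BL/6J. The ratio of melanocytes to RPE was 929 (353 to 3469) in the first library and at least 943 in the second, with 3 UMIs taken as the limit that a count of 0 allows in RPE; its exact 95% lower limit was 759. Melanocytes, 0.440% and 0.662% of the cells, held 75.9% and 88.9% of all *Syt4* UMIs.
*Rab17* was scarce throughout, with 24 and 6 UMIs in whole libraries. RPE held 21 of the UMIs in B6129PF1/J (0.07 per 10,000, 0.0433 to 0.107) and 3 in C57BL/6J (0.0172, 0.00354 to 0.0502). Melanocytes held 2 and 1 UMIs, and the ratio of melanocytes to RPE, 3.22 (0.366 to 13.2) and 5.61 (0.107 to 69.9), has an interval that spans 1 in both libraries.

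At a threshold of 2-fold with at least 10 UMIs over the pair of clusters, 7 of the 9 members in B6129PF1/J and 5 of 8 in C57BL/6J were higher in melanocytes, where 29.8% and 28.9% of all genes were. One member in each library, *Myrip*, was higher in RPE, where 30.7% and 23.6% of all genes were; its 0 in melanocytes counts as past the threshold although the bound in B6129PF1/J is 1.99. Because this contrast served in choosing the members, nothing is read from these counts.

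**Figure D1:**
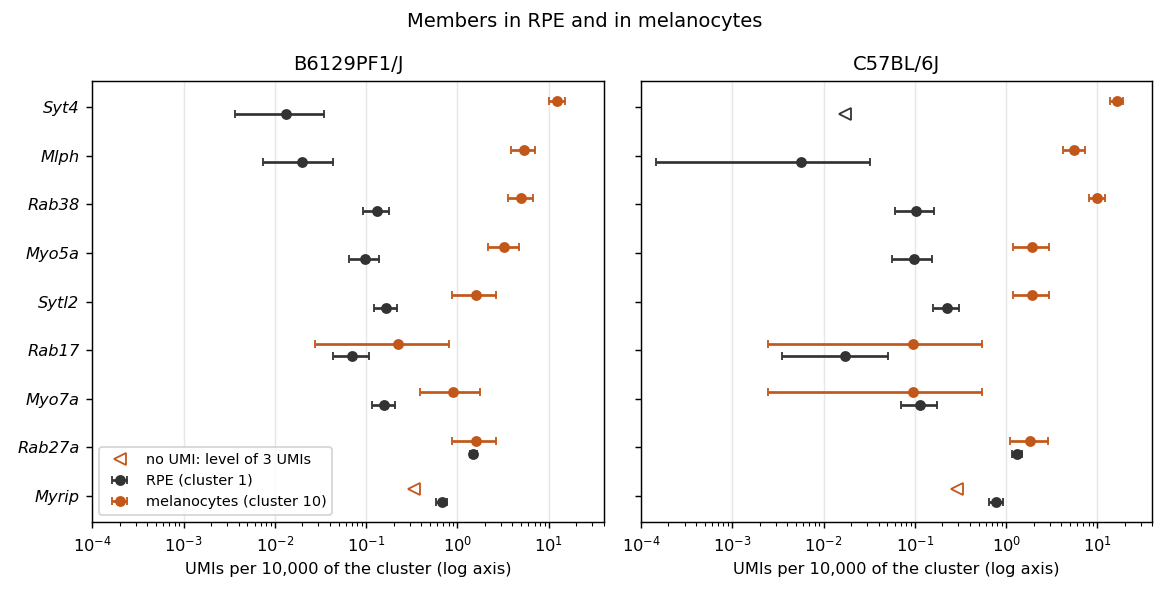
Level of each member in RPE (dark) and in melanocytes (orange), as UMIs per 10,000 UMIs of the cluster on a log axis, for the B6129PF1/J library (left) and the C57BL/6J library (right). Points are summed counts of 1 library, bars are exact Poisson 95% intervals, and open triangles mark the level that 3 UMIs would give where no UMI was found; *Syt4*, *Mlph*, *Rab38*, *Myo5a* and *Sytl2* lie far apart in both libraries, while the intervals of *Rab27a* overlap.

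Across all 13 clusters, 5 members (*Mlph*, *Myo5a*, *Rab38*, *Sytl2* and *Syt4*) had their highest level in melanocytes in both libraries with an interval that did not overlap that of the next cluster. *Rab27a* and *Rab17* were also highest in melanocytes, but with intervals that overlapped those of the next cluster. *Myrip* was highest in RPE, with an interval that overlapped that of cluster 4 in B6129PF1/J and not in C57BL/6J. *Myo7a* was highest in melanocytes in B6129PF1/J, with an interval that did not overlap that of the next cluster. In C57BL/6J it was highest in the ECs of cluster 2, at 0.219, with an interval that overlapped that of cluster 3, at 0.122. Melanocytes had 1 UMI of it there, so its highest cluster in that library is not resolved.

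**Figure D2:**
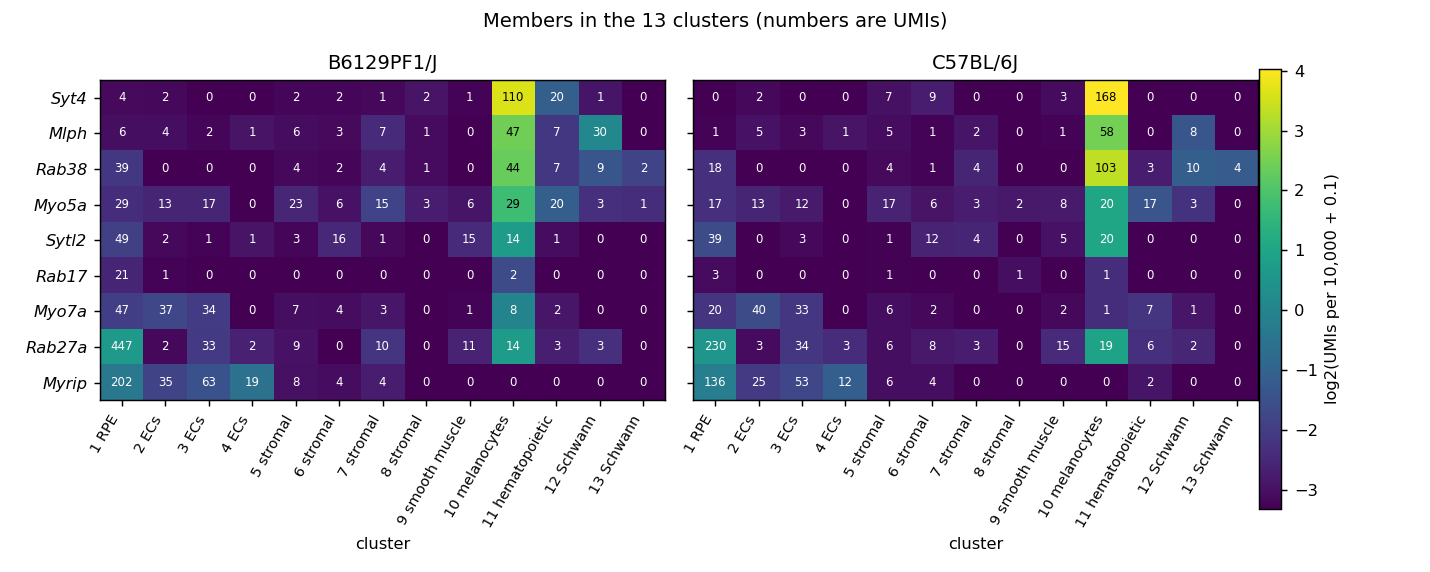
Level of each member in the 13 clusters, coloured by log2(UMIs per 10,000 + 0.1), with the UMIs behind each value written in the field, for B6129PF1/J (left) and C57BL/6J (right). Cluster 10, melanocytes, is brightest for *Syt4*, *Mlph*, *Rab38*, *Myo5a* and *Sytl2*, and RPE and the EC clusters 2 to 4 stand out for *Myrip*.

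Choroidal ECs carried the RPE partners. The study names its EC clusters 2, 3 and 4 *Kdr* high, medium and low, and *Kdr* levels in the clusters used here are not given. In clusters 2, 3 and 4, *Myrip* was at 0.184 (35 UMIs), 0.261 (63 UMIs) and 0.581 (19 UMIs) per 10,000 in B6129PF1/J. In C57BL/6J it was at 0.137 (25 UMIs), 0.197 (53 UMIs) and 0.363 (12 UMIs), the same order. Cluster 4 was 3.16-fold (1.71 to 5.68) and 2.65-fold (1.21 to 5.47) above cluster 2, both intervals above 1, while cluster 3 was 1.42-fold (0.926 to 2.21) and 1.44-fold (0.877 to 2.41) above cluster 2, both intervals spanning 1. RPE was 1.16-fold (0.724 to 1.97) above cluster 4 in B6129PF1/J and 2.15-fold (1.19 to 4.25) above it in C57BL/6J. As a measure of RPE RNA carried into these clusters, the 6 RPE markers were there at 0.264% to 1.05% of their RPE level, whereas *Myrip* was at 27.3%, 38.8% and 86.2% of its RPE level in B6129PF1/J and at 17.6%, 25.3% and 46.6% in C57BL/6J.
*Myo7a* was found in EC clusters 2 and 3 but not in cluster 4. It was at 0.194 (37 UMIs) and 0.219 (40 UMIs) in cluster 2 and at 0.141 (34 UMIs) and 0.122 (33 UMIs) in cluster 3, next to 0.157 and 0.114 in RPE. No UMI was found in the 63 and 72 cells of cluster 4, whose 95% upper limits were 0.113 and 0.111, at most 0.610 and 0.533 times the level of cluster 2. ECs of the 3 clusters together held 49.7% and 65.2% of all *Myo7a* UMIs.
*Rab27a* was placed differently among ECs. It was at 0.137 (33 UMIs) and 0.126 (34 UMIs) in cluster 3 and at 0.0105 (2 UMIs) and 0.0164 (3 UMIs) in cluster 2, that is 13-fold (3.33 to 112) and 7.68-fold (2.42 to 39.1) higher in cluster 3. Cluster 4 had 2 and 3 UMIs, too few to place it. In cluster 2 *Rab27a* was at 0.704% and 1.249% of its RPE level, against 0.444% to 0.736% and 0.468% to 0.635% for the RPE markers there.

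**Figure D3:**
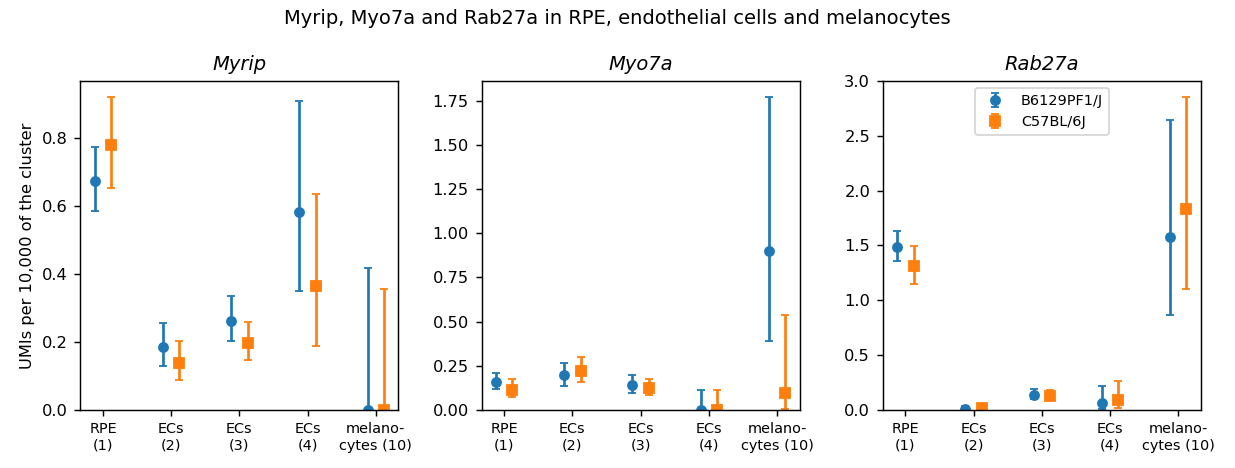
Level of *Myrip*, *Myo7a* and *Rab27a* (UMIs per 10,000 UMIs of the cluster, linear axes) in RPE, the 3 EC clusters and melanocytes of the B6129PF1/J (circles) and C57BL/6J (squares) libraries, with exact Poisson 95% intervals. *Myrip* is highest in cluster 4 among the EC clusters, *Myo7a* has no UMI in cluster 4, and *Rab27a* is higher in cluster 3 than in cluster 2.

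Some of these genes were also found in Schwann cells. *Mlph* was at 0.981 (30 UMIs in 29 of 108 cells, 0.662 to 1.40) in cluster 12 of B6129PF1/J and at 0.293 (8 UMIs in 8 of 108 cells, 0.127 to 0.578) in C57BL/6J, the second-highest cluster for this gene in both. *Rab38* was at 0.294 (9 UMIs) and 0.367 (10 UMIs) in cluster 12, also its second-highest. *Syt4* had 1 and 0 UMIs there. Melanocyte markers summed to 1.503 and 1.431 per 10,000 in cluster 12, with 2 of the 6 at 0. Of these, *Mlana* (0.327 and 0.0367) and *Dct* (0.784 and 0.293) were higher in B6129PF1/J, as *Mlph* was, and *Tyrp1* (0.360 and 1.06) was higher in C57BL/6J. Their part in the Schwann cell values was not tested.

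Single cells shaped some of the low values. All 20 *Syt4* UMIs of hematopoietic cells in B6129PF1/J were in 1 cell of 9131 UMIs, which also held 5 UMIs of *Mlph*, 7 of *Rab38*, 71 of *Mlana*, 104 of *Dct* and 3 of the leukocyte gene *Ptprc*. One RPE cell of the same library, with 3518 UMIs, held 5 UMIs of *Rab38*, 2 of *Mlph*, 15 of *Mlana* and 41 of *Dct*. Without these 2 cells, which were picked after their values were seen, *Syt4* in cluster 11 went from 0.365 to 0, *Rab38* there from 0.128 to 0, *Mlph* from 0.128 to 0.0372 and *Myo5a* from 0.365 to 0.279, and in RPE *Mlph* went from 0.02 to 0.0134 and *Rab38* from 0.13 to 0.113. Whether they were doublets was not tested.

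Strain, pool of mice and library cannot be told apart. Over the 87 pairs of member and cluster with at least 1 UMI, 10 ratios of the libraries had an interval that excluded 1, with no correction for their number, 6 of them higher in B6129PF1/J and 4 in C57BL/6J. *Rab38* in melanocytes was 2.00-fold (1.39 to 2.92) higher in C57BL/6J, and *Syt4* in melanocytes 1.31-fold (1.02 to 1.68) higher. In the other direction, *Rab17* in RPE was 4.08-fold (1.22 to 21.4) and *Mlph* in Schwann cells of cluster 12 was 3.34-fold (1.5 to 8.43) higher in B6129PF1/J, as were *Myo7a* in melanocytes (9.35-fold, 1.253 to 415) and *Sytl2* in smooth muscle of cluster 9 (3.03-fold, 1.05 to 10.7). The other 4 were *Mlph* and *Syt4* in cluster 11, where 1 cell held most or all of the UMIs, and *Rab27a* and *Syt4* in stromal cells of cluster 6, with 0 and 8 and with 2 and 9 UMIs. *Mlph* in melanocytes was at 1.06 times (0.706 to 1.59) the B6129PF1/J level in C57BL/6J and *Myo5a* at 0.590 times (0.316 to 1.08), intervals that span 1.

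The members' profiles were set beside those of 12720 genes with at least 20 UMIs in each library, as Pearson's r of log2(UMIs per 10,000 + 0.1) over the 26 cluster and library values, which share libraries and so are not independent. *Mlph* was most like *Scrg1* (r = 0.955), *Rab38* (0.913) and *Insl6* (0.913). *Rab38* was most like *Tyrp1* (0.936), a melanin enzyme, with *Scn8a* (0.914) and *Mlph* next. *Syt4* was most like *Gjb6* (0.985), *Gjb2* (0.979), which like *Gjb6* encodes a connexin, and *Stmn3* (0.969), and *Myo5a* was most like *Tbc1d31* (0.945), *Aph1c* (0.929) and *Syt4* (0.925). *Sytl2* was most like *Slc45a2* (0.963), a melanosome transporter, then *Tpd52l1* (0.962) and *Tnfrsf11b* (0.961). *Rab17*, whose 24 and 6 UMIs do not reach that filter in C57BL/6J and which had no UMI in 10 and 9 of the 13 clusters, was most like *Syt9* (0.968), *Trpm1* (0.932) and *Slc24a5* (0.925). *Rab27a* was most like *Met* (0.963), *Tspan10* (0.959) and *Adhfe1* (0.951). *Myrip* was most like *Stox1* (0.940), *Npr1* (0.912) and the glucose transporter *Slc2a1* (0.894), and the lowest r of a nearest neighbour was that of *Myo7a*, with *Cyp4b1* (0.814), *Zfp652os* (0.799) and *Slc25a37* (0.794). Among the members themselves r was highest for *Myo5a* and *Syt4*, followed by *Mlph* and *Rab38*, and *Myrip* had an r of -0.278 with *Mlph* and of 0.361 with *Rab27a*. Spearman's rank correlation named 4 of the same 27 neighbours.

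Of 84 other genes of melanosome biogenesis, transport and Rab27 effectors, 79 were measured and 53 had at least 20 UMIs over RPE and melanocytes in each library. Of these, 13 were at least 2-fold higher in melanocytes in both libraries, 4 in RPE and 36 in neither, next to 13.8% and 13.5% of all 6317 such genes. Highest in melanocytes were *Mlana*, which encodes a melanosome protein (63.9-fold and 83.1-fold), and the transporters *Slc45a2* (40.05-fold and 67.4-fold) and *Slc24a5* (9.93-fold and 6.34-fold), followed by *Mitf* (5.41-fold and 10.2-fold), *Anxa2* (5.66-fold and 11.2-fold), *Ap1s1* (7.63-fold and 5.18-fold), *Tpm4* (5.40-fold and 4.21-fold) and *Stx12* (3.96-fold and 2.75-fold). The 4 on the RPE side were *Spire2*, an actin nucleator, at 0.473 and 0.532 per 10,000 in RPE, *Rilp*, a Rab7 effector, at 0.390 and 0.360, *Rab3gap1* at 0.173 and 0.149, and *Sytl3*, a relative of *Sytl2*, at 0.127 and 0.172. None of the 4 had a UMI in B6129PF1/J melanocytes and *Rilp* had 1 in C57BL/6J. In RPE *Rab3gap1* and *Sytl3* lay below the level of 3 melanocyte UMIs (0.338 and 0.289 per 10,000). A difference was thus not detectable for them at this depth. *Spire2* and *Rilp* lay above that level by less than 2-fold in both libraries, so their 2-fold call rests on melanocyte counts of 0 or 1.
Among the 15 other synaptotagmins, 10 were measured and 3 had enough UMIs. *Syt1* was found in RPE (0.290 and 0.206) with no UMI in melanocytes, again below the level of 3 UMIs there. *Syt9* was at 0.788 (7 UMIs) and 0.289 (3 UMIs) in melanocytes and at 0.113 and 0.114 in RPE, a ratio of 6.95 (2.60 to 15.9) in B6129PF1/J and of 2.53 (0.481 to 8.52), an interval that spans 1, in C57BL/6J. *Syt11* was highest in Schwann cells of cluster 13, at 1.40 and 0.918.

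In tissue, the question was how these genes stood after *Ihh*, a ligand that choroidal ECs make, had been deleted from ECs. The tissue values are the authors' group means of 3 mice in FPKM, which are scaled by transcript length; they hold no value of a single mouse, so the spread between mice cannot be given and no difference was tested. In tissue, fewer cells of a type and less RNA per cell cannot be told apart. *Ihh* itself went from a mean of 1.53 FPKM in *Ihh+/+* to 0.454 in *Ihh iΔEC/iΔEC*, and its target *Gli1* from 9.40 to 3.15. In *Ihh+/+* tissue *Mlph* (49.6 FPKM) and *Rab27a* (48.2) had the highest means of the 9, followed by *Myrip* (32.6), *Syt4* (26.9), *Rab38* (19.6), *Myo7a* (17.3), *Sytl2* (14.7) and *Myo5a* (12.9), and *Rab17* had the lowest (0.841).

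In *Ihh iΔEC/iΔEC* tissue 5 of the 9 members had a mean at 0.8 or less of that in *Ihh+/+*. *Syt4* went from 26.9 to 11.9 FPKM, which is 44.3% of the *Ihh+/+* mean, and *Sytl2* from 14.7 to 7.63 (51.8%). *Rab38* went from 19.6 to 11.9 (61.0%), *Mlph* from 49.6 to 32.4 (65.3%) and *Myo5a* from 12.9 to 8.72 (67.4%). In the 2 single-cell libraries melanocytes held 75.9% and 88.9% of the UMIs of *Syt4* and 41.2% and 68.2% of *Mlph*. They held 39.3% and 70.1% of *Rab38*, of which RPE held 34.8% and 12.2%. They held 13.6% and 23.8% of *Sytl2*, of which RPE held 47.6% and 46.4%. Of *Myo5a* melanocytes held 17.6% and 16.9%, RPE 17.6% and 14.4%, and ECs 18.2% and 21.2%. Stromal clusters 5 to 8 had 23, 6, 15 and 3 UMIs of *Myo5a* in B6129PF1/J. In C57BL/6J they had 17, 6, 3 and 2, next to 29 and 20 in melanocytes of the 2 libraries. These shares, and those given below, are of sorted, dissociated cells. The mix of cells in the tissue libraries was not measured, so they are not shares of the tissue signal. Both the tissue means and the single-cell levels served in choosing the members.
The remaining 4 did not have lower means of that size. *Myo7a* went from 17.3 to 15.3 FPKM (88.4%) and *Rab27a* from 48.2 to 49.9 (103%). *Myrip* went from 32.6 to 39.4 (121%) and *Rab17* from 0.841 to 1.87 (222%), the latter from a level under 1 FPKM. RPE held 83.7% and 69.9% of *Rab27a* UMIs and 60.3% and 57.1% of *Myrip* UMIs in the single-cell libraries, and 2.62% and 5.78% of *Rab27a* UMIs and none of *Myrip* were in melanocytes.

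A mean was counted as different where the lower group was at 0.8 or less of the higher, and the higher reached 1 FPKM. By this count 5 of 9 members were lower in *Ihh iΔEC/iΔEC*, where 8.53% of 11411 genes were, and 1, *Rab17*, was higher, where 5.19% were. Past 2-fold these were *Syt4* (0.745% of genes lower) and *Rab17* (1.1% higher). The members' median log2 difference was -0.56, next to -0.04 over all genes. The tissue means were among the values that chose the members, so these counts are descriptions. On the log2 scale with 0.1 FPKM added, the values ran from -1.17 for *Syt4* through -0.94 for *Sytl2*, -0.71 for *Rab38*, -0.61 for *Mlph*, -0.56 for *Myo5a*, -0.18 for *Myo7a*, 0.05 for *Rab27a* and 0.27 for *Myrip* to 1.07 for *Rab17*.

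Marker lists were set beside these values. Of the 6 melanocyte markers, 4 (*Mlana*, *Pmel*, *Dct* and *Tyrp1*) had means at 0.544 to 0.701 times *Ihh+/+*, and *Tyr* and *Kit* at 1.001 and 0.897 times, with a median log2 of -0.56. The 6 RPE markers had means at 1.16 to 1.34 times *Ihh+/+* (median log2 0.28), of which 1, *Rpe65*, was higher by the count used for the members. All 4 photoreceptor markers, which stand for retina left on the tissue, were lower (median log2 -1.32), as were 3 of 4 stromal markers by the same count (median log2 -0.59). Of the markers of other cell types that reached 1 FPKM, 0 of 5 for ECs, 0 of 3 for hematopoietic cells, 1 of 3 for smooth muscle, 1 of 3 for Schwann cells and 2 of 2 for mast cells were lower, and none was higher. The part of these lists in the members' values was not tested. Of the 65 other pathway genes with at least 1 FPKM, 7 were lower, among them *Mlana*, *Slc24a5* (102.7 to 78.1 FPKM) and *Fmn1*, and 2 were higher, *Myo5b* and *Spire2*; their median log2 was -0.02. Of 6 other synaptotagmins, *Syt15* was lower (1.92 to 1.13 FPKM) and *Syt1* higher (3.42 to 4.64).

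**Figure D4:**
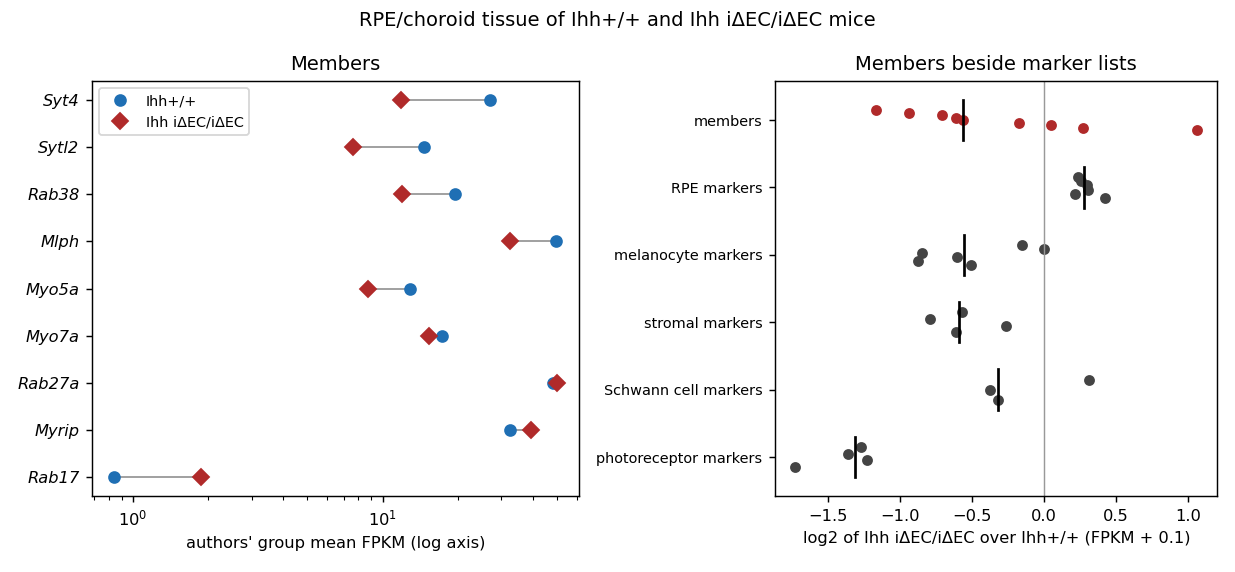
Left, the authors' mean FPKM of each member (log axis) in RPE/choroid tissue of 3 *Ihh+/+* (circles) and 3 *Ihh iΔEC/iΔEC* (diamonds) mice, ordered by the ratio; right, log2 of *Ihh iΔEC/iΔEC* over *Ihh+/+* with 0.1 FPKM added, 1 point per gene, for the members and for marker lists of 5 cell types, with the median as a bar. No error can be drawn because only group means are held; *Syt4*, *Sytl2*, *Rab38*, *Mlph* and *Myo5a* lie lower in *Ihh iΔEC/iΔEC*, as do most melanocyte markers, and *Myrip* and all RPE markers lie above 0.

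Cultured GLI1+ cells, which are stromal, showed little of these genes. Only *Myo5a*, *Rab38* and *Myo7a* reached a mean of 1 FPKM in either group. *Myo5a* was at 4.58 FPKM with DMSO and 5.01 with SAG, and *Rab38* at 1.38 and 1.32. *Myo7a* was at 1.06 and 0.592 FPKM, the one of these 3 to be counted as lower, where 5.45% of 10325 genes were lower and 6.33% higher; none was past 2-fold, where 1.18% were lower and 0.387% higher. The other 6 were at 0.246 FPKM or less in both groups, *Syt4* at 0.0263 and 0.0213 and *Myrip* at 0.0567 and 0.0557, while *Gli1* went from 0.028 to 3.65. Of 55 other pathway genes at 1 FPKM or more, 2 were lower and 5 higher with SAG.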

How the data were processed

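The authors aligned the scRNAseq reads to mm10 and counted UMIs per gene with Cell Ranger, filtered cells and genes in Seurat 2.1, and deposited the raw UMI counts with the cluster of each cell in a metadata table; every cell's deposited counts summed to its total there. The authors aligned the bulk reads with STAR 2.4.0f1 and deposited group mean FPKM from Cufflinks 2.0.2, without values of single libraries. Their fold changes and adjusted p-values per comparison, their table of EC genes and their cluster averages were not used. No per-sample column was left without a sample.

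Here UMIs were summed per cluster and library in Python 3.11.15 with pandas 2.3.3 and NumPy 2.4.6, and intervals came from SciPy 1.17.1. Ratios have exact conditional binomial 95% intervals. A count of 0 was taken to allow 3 counts, per cluster and library. No doublets were removed. FPKM were compared as log2 with 0.1 added. Gene positions are from GENCODE M21. The scripts were tested on simulated Poisson counts, the model that the intervals assume, so variation between cells was not covered by that test. Named genes were the 9 members, 3 neighbours each, up to 8 pathway genes per direction, markers, *Ihh* and *Gli1*. The members and lists were chosen with earlier results of these data known. Members were called past 2-fold (single cells, at least 10 UMIs) or where the lower group mean was at most 0.8 of the higher (tissue). Alternatives were thinning to 1700 UMIs, leaving out cells, other denominators, thresholds, pseudocounts and rescaling.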

Additional observations from a re-analysis of the deposited data

How the results depend on the processing

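Every ratio past 2-fold between RPE and melanocytes, except that of *Myrip*, and every tissue value past its threshold kept its direction under the alternatives run. Thinned to 1700 UMIs per cell, 6 of 18 log2 ratios of RPE to melanocytes left the interval: *Myo5a* to -6.25 and *Myrip* to -0.76 in B6129PF1/J, and *Mlph* to -7.26, *Myo7a* to -2.43, *Myrip* to 0.45 and *Syt4* to -8.43 in C57BL/6J. There, levels of 0 were set to 3 UMIs. *Myrip* in B6129PF1/J (1.00 as reported) and *Myo7a* in C57BL/6J (0.25 as reported, with an interval that spans 0) thus changed sign against a melanocyte count of 0, which says nothing of direction. *Rab27a* in B6129PF1/J, near equal in both cell types, went from -0.08 to 0.47. Without the cell with most UMIs of the member, *Syt4* in B6129PF1/J went to -11.8. With mitochondrial genes and the 10 top genes left out of the denominator, 14 of 36 levels moved past their interval and none of the 18 ratios did. On thinning, 22 shares of cells moved past their interval and 14 did not. Past 2-fold, 1 member instead of 5 was lower in *Ihh iΔEC/iΔEC*. A pseudocount of 1 FPKM took *Rab17* from a log2 of 1.07 to 0.64, and the median tissue ratio of all genes was -0.04 on the log2 scale. No paired analysis was possible because the bulk tables hold group means only, and leaving out a replicate was not possible for the same reason. The 16 and 26 melanocytes limit every melanocyte value, and the FPKM tables give no depth.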
